A study of Mus musculus with 4 samples.

Results

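The Slc25a genes encode most of the mitochondrial carriers of the mouse. The members were the protein-coding genes whose symbol starts with Slc25a in RefSeq (GRCm38.p6, the coordinates that mm10 uses). They numbered 47 of 21887 nuclear protein-coding genes, and membership was by symbol alone. ATAC-seq, which tags accessible DNA with the Tn5 transposase, was run on 50000 macrophages per library. The macrophages were grown for 5 days with 10% M-CSF from bone marrow of C57BL/6 mice that were wild-type (WT) or Slc6a8-/y (KO), the latter lacking the X-linked creatine transporter gene. Each genotype was left untreated or received IL-4 at 10 ng/mL for 6 h, giving 4 groups of 1 library each: WT untreated, WT IL-4, KO untreated and KO IL-4. The labels do not say how many animals contributed to a library. With 1 library per group, no difference could be set against replicate error, no p-value was computed, and every comparison is between libraries. Bracketed ranges are 95% Clopper-Pearson intervals, which reflect counting error alone.

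Mitochondrial carriers are nuclear-encoded proteins that sit, with few exceptions, in the inner mitochondrial membrane. They exchange nucleotides, phosphate, di- and tricarboxylates, amino acids, carnitine esters and cofactors between the matrix and the cytosol, and so tie oxidative phosphorylation and the citric acid cycle to the rest of metabolism. The ADP/ATP carriers supply the ATP that mitochondrial creatine kinase turns into phosphocreatine. Macrophages activated by IL-4 are known for their reliance on oxidative metabolism and fatty acid oxidation.

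RefSeq start-site sequences (build GRCm38.p6) were matched to 36 of the 47 members (76.6%). Below 80%, a check of base composition or motifs over the whole family is void, so 7 promoters are shown as single cases. Each is the 250 bases before the most upstream listed start, 5′ to 3′ in the direction of the gene. An edge peak is one within 1 kb of either end of the gene's span. Slc25a42 had one of high score in all 4 libraries. Slc25a14 and Slc25a23 had one in both untreated libraries and in neither IL-4 library. Slc25a21 and Slc25a34 had no peak within 10 kb in any library. Slc25a4 lacked its peak in WT IL-4 and Slc25a13 in KO IL-4, and this pair was chosen after the values were seen. Slc25a41 was named by the same rule as Slc25a42 and had no entry. Capitals mark exact matches, on either strand, to the motifs GCGCATG (NRF1), CCGGAAG (ETS), GAGGAAG (PU.1), GGGCGG (GC box), CCAAT (the CCAAT box), AAGATGG (YY1), CACGTG (E-box), TGACGT (CRE), TGANTCA (AP-1) and the STAT6 motif, TTC and GAA with any 4 bases between.
Slc25a42 (chr8:70212282-70212531, minus strand): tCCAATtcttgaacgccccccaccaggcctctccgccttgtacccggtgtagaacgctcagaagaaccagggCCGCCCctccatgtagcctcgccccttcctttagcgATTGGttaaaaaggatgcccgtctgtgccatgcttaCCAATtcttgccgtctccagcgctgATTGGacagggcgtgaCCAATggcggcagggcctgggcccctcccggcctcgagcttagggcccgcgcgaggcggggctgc
Slc25a14 (chrX:48623198-48623447, plus strand): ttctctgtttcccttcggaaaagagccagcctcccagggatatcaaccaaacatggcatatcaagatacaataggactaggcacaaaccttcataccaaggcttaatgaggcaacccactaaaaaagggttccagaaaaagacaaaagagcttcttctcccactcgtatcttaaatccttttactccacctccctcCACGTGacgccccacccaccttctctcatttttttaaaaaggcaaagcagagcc
Slc25a23 (chr17:57059864-57060113, minus strand): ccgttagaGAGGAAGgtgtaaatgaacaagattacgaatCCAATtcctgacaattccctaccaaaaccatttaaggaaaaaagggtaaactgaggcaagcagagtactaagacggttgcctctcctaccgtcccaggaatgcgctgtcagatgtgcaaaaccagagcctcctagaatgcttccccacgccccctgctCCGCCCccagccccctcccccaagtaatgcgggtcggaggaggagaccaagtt
Slc25a21 (chr12:57197473-57197722, minus strand): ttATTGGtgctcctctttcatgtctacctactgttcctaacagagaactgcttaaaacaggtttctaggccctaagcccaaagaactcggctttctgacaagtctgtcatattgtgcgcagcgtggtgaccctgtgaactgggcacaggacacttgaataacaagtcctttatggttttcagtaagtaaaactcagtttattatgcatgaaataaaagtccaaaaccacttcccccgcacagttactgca
Slc25a34 (chr4:141623835-141624084, minus strand): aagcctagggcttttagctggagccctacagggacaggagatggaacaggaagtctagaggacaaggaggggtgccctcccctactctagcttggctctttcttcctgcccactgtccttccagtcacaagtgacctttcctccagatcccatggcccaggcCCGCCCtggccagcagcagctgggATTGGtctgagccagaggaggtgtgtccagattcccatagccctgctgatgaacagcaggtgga
Slc25a13 (chr6:6217174-6217423, minus strand): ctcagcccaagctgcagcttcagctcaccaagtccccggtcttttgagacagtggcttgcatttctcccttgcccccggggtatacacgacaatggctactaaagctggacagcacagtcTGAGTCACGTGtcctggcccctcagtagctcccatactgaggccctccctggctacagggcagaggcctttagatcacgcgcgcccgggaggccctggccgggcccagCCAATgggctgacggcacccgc
Slc25a4 (chr8:46211063-46211312, minus strand): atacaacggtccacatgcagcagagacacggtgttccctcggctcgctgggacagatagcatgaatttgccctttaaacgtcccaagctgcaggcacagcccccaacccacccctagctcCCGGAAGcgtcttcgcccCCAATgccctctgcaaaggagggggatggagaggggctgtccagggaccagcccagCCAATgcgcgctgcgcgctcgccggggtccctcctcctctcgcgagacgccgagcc

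The Slc25a42 window held 5 CCAAT matches and 1 GC box, and that of Slc25a4 held 2 CCAAT matches and 1 ETS match. In the Slc25a13 window an AP-1 match from -130 to -124 overlapped an E-box from -125 to -120, counted from the start, and a CCAAT match lay at -22 to -18. That of Slc25a14 had 1 E-box, and that of Slc25a23 had 1 PU.1 match, 1 CCAAT and 1 GC box. Slc25a21, without a peak, had 1 CCAAT match, and Slc25a34 had 1 CCAAT and 1 GC box. Among the 17492 promoters of the same length, 36.5% held CCAAT, 42.7% the GC box, 9.15% the ETS, 9.96% the PU.1, 6.65% the E-box and 6.18% the AP-1 letters. The windows held 18 CpG dinucleotides at Slc25a42, 18 at Slc25a4, 11 at Slc25a13, 9 at Slc25a23, 4 at Slc25a14, 4 at Slc25a21 and 1 at Slc25a34, against a median of 10 over all promoters. Peaks covered all 250 bases of the Slc25a42 window in every library. They covered all 250 bases of the Slc25a4 window in every library but WT IL-4, and of the Slc25a13 window in every library but KO IL-4. The Slc25a23 window was covered by 0 bases, since its edge peak lay further upstream, and that of Slc25a14 by 59 bases in WT untreated only.

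The lists held 17339 peaks untreated and 9930 with IL-4 in WT, and 13714 untreated and 10443 with IL-4 in KO. Sequencing depth was unknown. Because an untreated list is longer, each count is also given at equal list lengths, that is with every list cut to its 9930 best-scoring peaks. The score is the authors' value for a peak, ranges from 50 to 3100, has no stated unit and ranks peaks only within its own list. The targeted gene gave no check of the labels, as Slc6a8 had 0 peaks within 10 kb in every library. Of 10 macrophage marker genes, 7 had an edge peak in the WT untreated library, 4 in KO untreated and 2 in each IL-4 library. Lyz2 and Adgre1 had one in 3 libraries each, Spi1 in WT untreated alone, and Csf1r in none. Of 17 markers of neutrophils, T cells, B cells and fibroblasts, 3 had one in WT untreated (S100a8, Cd3d and Ms4a1) and 1, Cd3d, in each other library. Other cell types' part in the carrier results was not tested.

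Carrier genes had a peak at their ends more often than protein-coding genes at large. In WT untreated 35 of 47 members had one (74.5%, 59.7 to 86.1), against 38.2% of all genes. WT IL-4 had 25 (53.2%, 38.1 to 67.9) against 28.4%, KO untreated 31 (66.0%, 50.7 to 79.1) against 34.8%, and KO IL-4 23 (48.9%, 34.1 to 63.9) against 29.0%. With equal lists the members numbered 28, 25, 29 and 23 in the same order, and the shares over all genes were 29.3%, 28.4%, 29.9% and 28.3%. In every library, and at both list lengths, the lower bound for the carriers lay above the share of all genes. High shares were not particular to the carriers: of 30 other mitochondrial transport genes, 90% (WT) and 83.3% (KO) had an edge peak untreated and 66.7% in each IL-4 library.

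**Figure D1:**
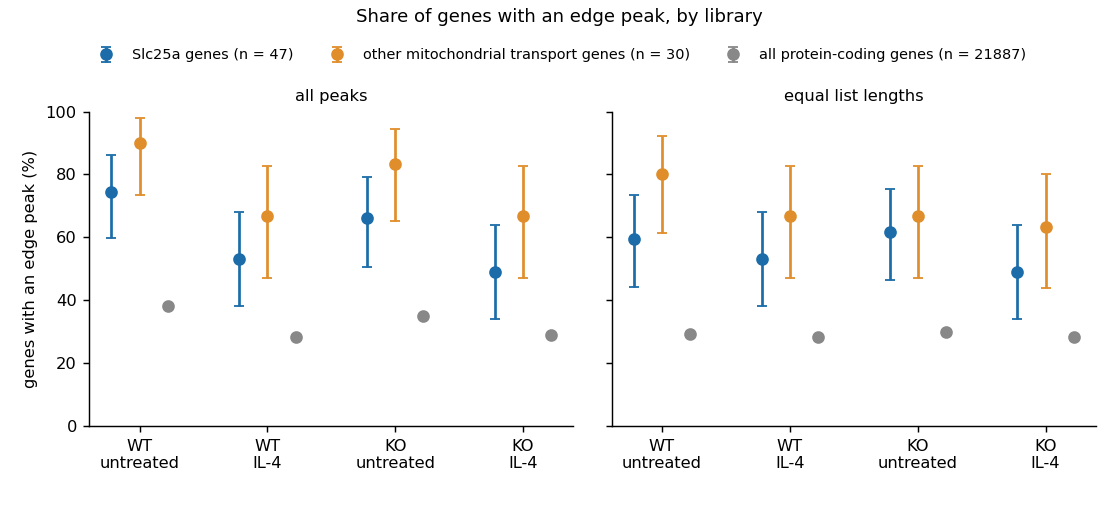
Share of genes with an edge peak (percent, vertical axis) in each of the 4 libraries, for the 47 Slc25a genes, 30 other mitochondrial transport genes and 21887 protein-coding genes; points are shares and bars exact 95% intervals. The carriers sit between 48.9% and 74.5% with all peaks, above the 28.4% to 38.2% of all genes and, within each library, below the other transport genes (66.7% to 90%), with overlapping intervals.

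Over the 4 libraries, 19 members had an edge peak in all 4 (40.4%, 26.4 to 55.7, against 22.9% of all genes), 17 in 1 to 3 libraries and 11 in none (23.4% against 58.3%). They included Slc25a3, Slc25a12, Slc25a15, Slc25a17, Slc25a25, Slc25a26, Slc25a27, Slc25a28, Slc25a29, Slc25a30, Slc25a32, Slc25a36, Slc25a38, Slc25a40, Slc25a41, Slc25a42, Slc25a44 and Slc25a46. Exactly 1, 2 and 3 libraries held an edge peak for 10.6%, 6.38% and 19.1% of members, against 5.94%, 5.85% and 6.97% of all genes. With lists cut to equal length, 19 members again had one in all 4 (40.4%, 26.4 to 55.7, against 21% of all genes). The members with none rose from 11 to 18 (38.3%, 24.5 to 53.6, against 63.1% of all genes). Where a start was listed, most edge peaks were centred near it. Of 29 such peaks in WT untreated, 22 had their centre within 300 bp of a listed start. The other libraries had 14 of 18 (WT IL-4), 18 of 24 (KO untreated) and 12 of 15 (KO IL-4).

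**Figure D2:**
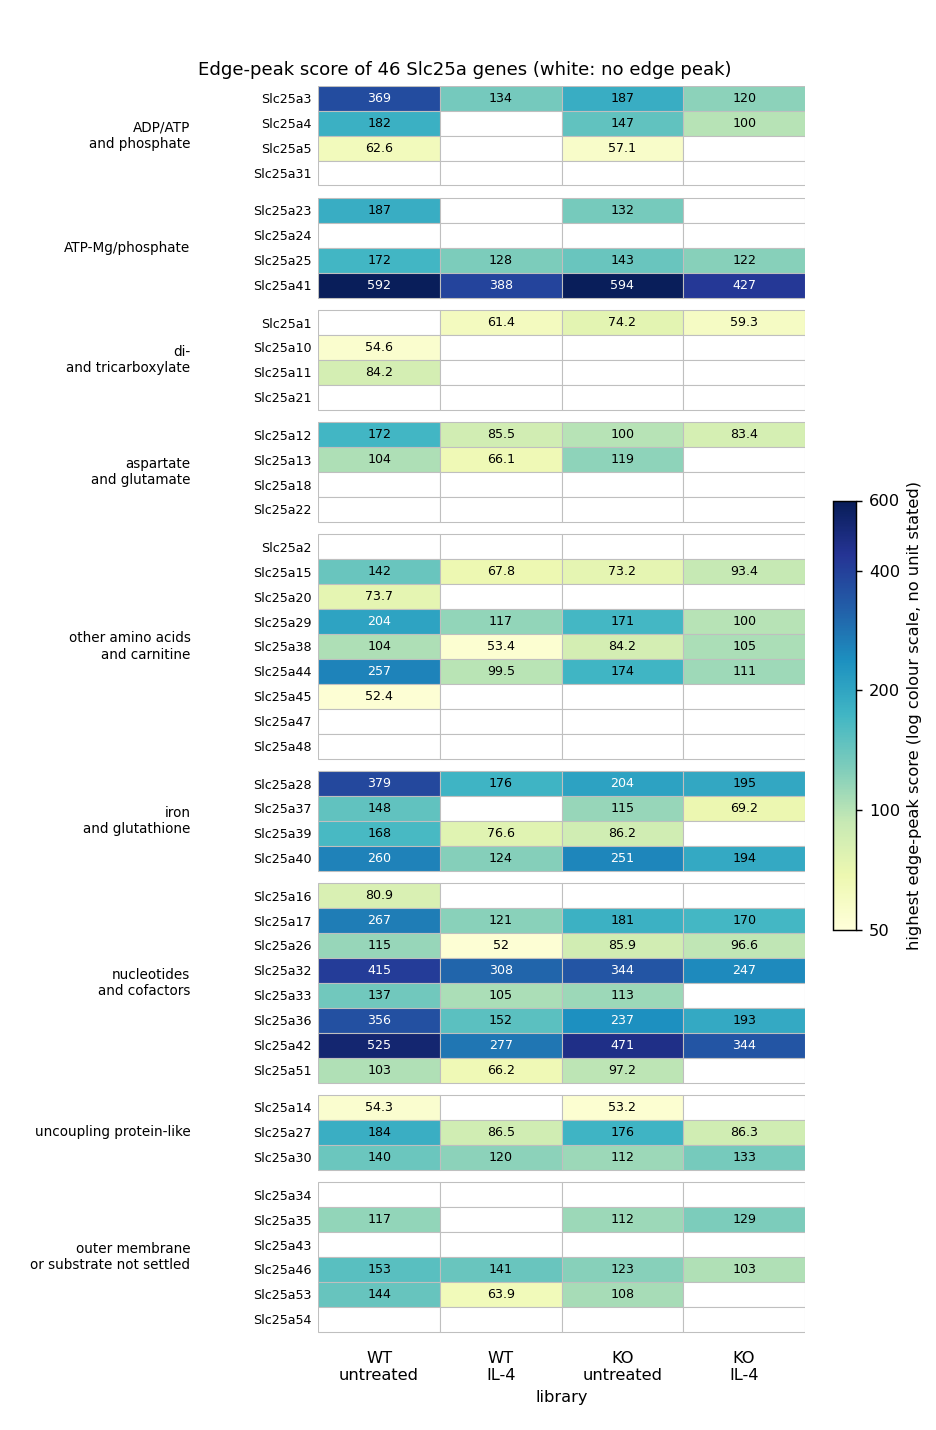
Highest edge-peak score (colour, log scale; the number in each cell is the score) of 46 Slc25a genes (rows, grouped by transported substrate) in the 4 libraries (columns); white cells have no edge peak. Scores rank peaks within a library only. Slc25a41, Slc25a42 and Slc25a32 are dark in every column, and the di- and tricarboxylate carriers are mostly white.

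The genes of ADP/ATP and phosphate exchange differed in how many libraries held their edge peak. Slc25a3, the phosphate carrier that feeds ATP synthase, had an edge peak over its start in all 4 libraries (chr10:91123702-91124276 in WT untreated). Its score was 369 untreated and 134 with IL-4 in WT, and 187 untreated and 120 with IL-4 in KO, at percentiles 95.3, 77.1, 82.5 and 70.7 of the lists. Slc25a4, the ADP/ATP carrier known from heart and muscle, scored 182 in WT untreated, 147 in KO untreated and 100.4 in the KO IL-4 library, and had no peak in WT IL-4 (chr8:46210795-46211440 in WT untreated). Slc25a5, the widely expressed ADP/ATP carrier on chromosome X, scored 62.6 in WT untreated and 57.1 in KO untreated and had no edge peak in either IL-4 library. The WT peak lay over the start, where KO untreated had a weaker one (54.0). Both highest scores were low in their lists (percentiles 17.5 and 12.5), and at equal list lengths no library kept the peak. Slc25a31, the testis ADP/ATP carrier, had no edge peak.

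Among the carriers that exchange ATP-Mg for phosphate, Slc25a25 and Slc25a41 had an edge peak in all 4 libraries. The Slc25a41 peak had the highest score of any member in each library (592 untreated and 388 with IL-4 in WT, and 594 untreated and 427 with IL-4 in KO). It lay outside the Slc25a41 span and within 1 kb of an end of Khsrp as well, so the gene it belongs to cannot be told apart. Slc25a23 had a peak centred at -629 bp from its start in WT untreated (chr17:57060200-57060784, score 187) and at -692 bp in KO untreated (score 132). Neither IL-4 library had one. Those scores stood at percentiles 79.2 and 68.1, and Slc25a23 was the only member whose peak was absent from both IL-4 libraries at equal list lengths too. Slc25a24 had no edge peak.

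The di- and tricarboxylate carriers were the only substrate group with no member, 0 of 4, that had an edge peak in all 4 libraries. The ADP/ATP and phosphate group and the aspartate and glutamate group each had 1 of 4, and the share of all genes was 22.9%. Slc25a1, the citrate carrier that exports acetyl units for lipid synthesis, had an edge peak in WT IL-4 (61.4), KO untreated (74.2) and KO IL-4 (59.3) and none in WT untreated, the longest list. Of all genes 0.146% had that pattern, and of those with an edge peak in the other 3 libraries 0.633% lacked one in WT untreated (4.42% at equal list lengths), against 1 of 20 carriers. Its 3 scores were at percentiles 22.1, 34.2 and 18.3. Slc25a10, the dicarboxylate carrier, scored 54.6 and Slc25a11, the 2-oxoglutarate carrier of the malate-aspartate shuttle, scored 84.2, in WT untreated only. The Slc25a11 peak also lay within 1 kb of an end of Rnf167. Slc25a21, the oxoadipate carrier, had no peak within 10 kb in any library.

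Of the aspartate and glutamate carriers, Slc25a12 had an edge peak over its start in every library. It scored 172 untreated and 85.5 with IL-4 in WT, and 100.1 untreated and 83.4 with IL-4 in KO, and WT untreated alone held a second edge peak at its far end (109). Slc25a13, or citrin, is its paralogue in the malate-aspartate shuttle and scored 104 in WT untreated, 66.1 in WT IL-4 and 119 in KO untreated, with no edge peak in KO IL-4. The only KO IL-4 peak at the Slc25a13 locus lay at -3515 bp from the start. Slc25a18 and Slc25a22, the glutamate carriers, had no edge peak. A WT untreated peak of Slc25a22 lay at an internal listed start.

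Carriers of other amino acids and of carnitine split in the same way. Slc25a15, the ornithine carrier of the urea cycle, had an edge peak in all 4 libraries, with scores of 142 untreated and 67.8 with IL-4 in WT, and 73.2 untreated and 93.4 with IL-4 in KO. Slc25a29 (basic amino acids), Slc25a38 (glycine for haem synthesis) and Slc25a44 (branched-chain amino acids) also had one in all 4. Slc25a20, the carnitine-acylcarnitine carrier that brings fatty acids to beta-oxidation, had an edge peak in WT untreated only, with a score of 73.7 at percentile 30.0. Slc25a45 too had one there only (52.4). Slc25a2, Slc25a47 and Slc25a48 had none.

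All 4 iron and glutathione carriers had an edge peak in both untreated libraries. Slc25a28, the mitoferrin of non-erythroid cells, scored 379 untreated and 176 with IL-4 in WT, and 204 untreated and 195 with IL-4 in KO. Slc25a37, the erythroid mitoferrin, scored 148 in WT untreated, 115 in KO untreated and 69.2 in the KO IL-4 library, and had no edge peak in WT IL-4. All 4 libraries shared a pair of peaks inside the Slc25a37 span. Slc25a39, a glutathione carrier, scored 168 in WT untreated, 76.6 in WT IL-4 and 86.2 in KO untreated, and KO IL-4 had no peak within 10 kb of it. Its partner Slc25a40 had a peak in all 4 (260, 124, 251 and 194 in the same library order as above) that also lay within 1 kb of an end of Dbf4.

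Nucleotide and cofactor carriers had the most members with an edge peak in every library, 6 of 9, against 22.9% of all genes. The equally large group of other amino acids and carnitine had 4 of 9, and the uncoupling protein-like genes 2 of 3. Slc25a42, which carries coenzyme A, scored 525 untreated and 277 with IL-4 in WT, and 471 untreated and 344 with IL-4 in KO. Slc25a32, which carries folate and FAD, scored 415, 308, 344 and 247 in that order, at a peak shared with an end of Dcaf13. Both were among the 5 members with the highest lowest-of-4 scores, with Slc25a41 and Slc25a28. Slc25a17, Slc25a26, which carries S-adenosylmethionine, and Slc25a36, for pyrimidine nucleotides, also had an edge peak in all 4. Slc25a33, a second pyrimidine nucleotide carrier, scored 137 in WT untreated, 105 in WT IL-4 and 113 in KO untreated, and Slc25a51, the NAD carrier, scored 103, 66.2 and 97.2. Neither had an edge peak in KO IL-4. Slc25a16 had edge peaks in WT untreated only, at its start (80.9) and at its far end beside Dna2 (50.8).

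Among the uncoupling protein-like genes, Slc25a27 and Slc25a30 had an edge peak in all 4 libraries, and Slc25a14, on chromosome X, in both untreated libraries only (54.3 in WT and 53.2 in KO). The Slc25a27 peak also lay within 1 kb of an end of Cyp39a1. Of the 6 remaining members, Slc25a46, an outer membrane protein of mitochondrial dynamics, had one in all 4. Slc25a35 scored 117 in WT untreated, 112 in KO untreated and 129 in the KO IL-4 library, and had none in WT IL-4. Slc25a53 scored 144 in WT untreated, 63.9 in WT IL-4 and 108 in KO untreated and had none in KO IL-4. Slc25a34, Slc25a43 and Slc25a54 had no locus peak in any library, a locus being the span plus 10 kb on each side.

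**Figure D3:**
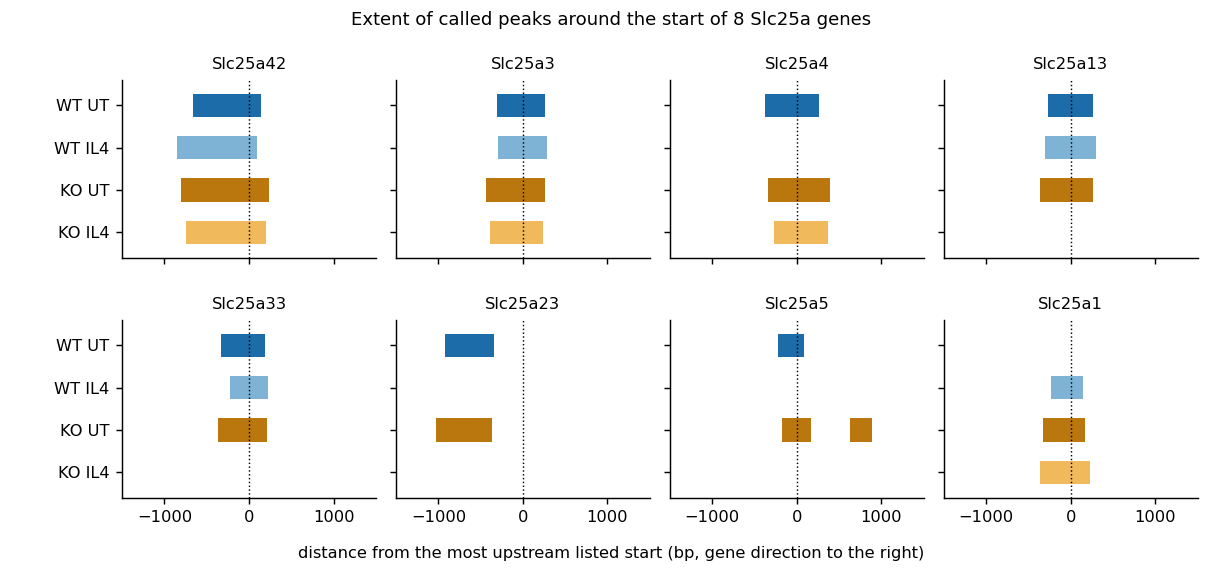
Extent of the called peaks (bars, one row per library) around the most upstream listed start of 8 Slc25a genes, in bp with the gene running to the right. Slc25a42 and Slc25a3 have a bar in all 4 rows, Slc25a4 lacks one in WT IL-4, Slc25a13 and Slc25a33 in KO IL-4, Slc25a23 and Slc25a5 in both IL-4 libraries, and Slc25a1 in WT untreated.

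The first question was whether carrier genes differed in accessibility with IL-4 in WT macrophages. A gene is called lost where the second-named library of a comparison had an edge peak and the first had none, and gained in the reverse case. With IL-4 in WT 11 members were lost: Slc25a4, Slc25a5, Slc25a10, Slc25a11, Slc25a14, Slc25a16, Slc25a20, Slc25a23, Slc25a35, Slc25a37 and Slc25a45. They made up 31.4% (16.9 to 49.3) of the 35 members that could be lost, near the 28.8% of all genes. The 1 member gained was Slc25a1, of 12 that could be, against 1.89% of all genes. At equal list lengths 4 were lost, namely Slc25a4, Slc25a23, Slc25a35 and Slc25a37 (14.3% against 16.8%). Slc25a1 stayed gained (against 5.61%), which was fixed in advance, as the cut leaves the WT IL-4 list whole. With a score of 100 or more no member was gained, 0 of 19, against 0.559% of all genes. None of the 11 lost with all peaks had a WT IL-4 peak overlapping its edge peak. The same held for 2395 of the 2409 genes lost overall. A lost gene has no WT IL-4 peak within 1 kb of its ends, so this was nearly fixed in advance.

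In KO macrophages 8 members were lost with IL-4: Slc25a5, Slc25a13, Slc25a14, Slc25a23, Slc25a33, Slc25a39, Slc25a51 and Slc25a53. This was 25.8% (11.9 to 44.6) of 31, against 22.7% of all genes. No member was gained, 0 of 16 (up to 20.6%), against 3.22% of all genes. Equal list lengths left 6 lost (20.7% against 17.5%), the list without Slc25a5 and Slc25a14, and none gained (against 5.28%). Slc25a5, Slc25a14 and Slc25a23 were lost in both genotypes, a pattern that 3.35% of all genes had. Another 8 of the 47 members were lost in WT alone and 5 in KO alone, as were 1676 and 995 of all 21887 genes. Those bases include genes that could not be lost. Of the 8, Slc25a10, Slc25a11, Slc25a16, Slc25a20 and Slc25a45 had an edge peak in WT untreated alone. These 5 could not be lost in KO, and the same held for at least 763 of the 1676. No library held an edge peak for 23.4% of the members and 58.3% of all genes. None of the 47 was lost in one genotype and gained in the other, against 256 of the 21887 genes. Whether the genotypes differed was not tested.

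**Figure D4:**
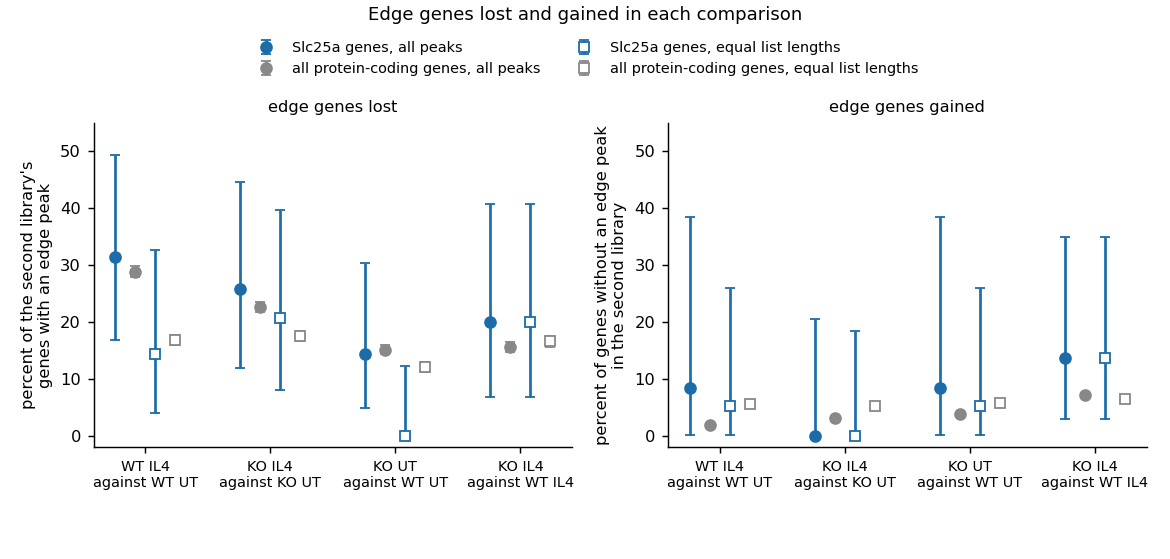
Percent of genes called lost (left, of those with an edge peak in the second library) and gained (right, of those without one) in the 4 comparisons; circles use all peaks, open squares equal list lengths, bars are exact 95% intervals. The Slc25a genes lie near all genes in most comparisons, with wide intervals.

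The comparison of KO with WT asked what the loss of the creatine transporter gene came with. In untreated macrophages 5 members were lost in KO, Slc25a10, Slc25a11, Slc25a16, Slc25a20 and Slc25a45, which is 14.3% of 35 against 15.1% of all genes. These 5 had an edge peak in WT untreated alone, with scores from 52.4 to 84.2, and 3.49% of all genes had that pattern. Slc25a1 was gained (1 of 12 against 3.88%). With equal lists no member was lost, 0 of 28 (up to 12.3%), against 12.1% of all genes. The cut of the WT untreated list at a score of 89.57 left out the peaks of all 5. The KO untreated list was cut at 67.78. Slc25a1 was again the 1 member gained, against 5.78%. This comparison and the WT one with IL-4 share the WT untreated library.

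After IL-4, KO against WT, 5 members were lost (Slc25a13, Slc25a33, Slc25a39, Slc25a51 and Slc25a53) and 3 gained (Slc25a4, Slc25a35 and Slc25a37). The lost were 20.0% (6.83 to 40.7) of 25 against 15.6% of all genes, and the gained 13.6% (2.91 to 34.9) of 22 against 7.10%. The same 5 and 3 were called at equal list lengths, against 16.6% and 6.56% of all genes. That cut leaves the WT IL-4 list whole, so no lost call could be undone. It drops KO IL-4 peaks below a score of 52.2, and the 3 gained had edge scores above that. With a score of 100 or more, 1 of 14 was lost (7.14% against 20.7%) and 4 of 33 gained (12.1% against 4.46%). All 8 called with all peaks had an edge peak in both untreated libraries. Of all genes, 2.75% lacked one in KO IL-4 alone and 3.36% in WT IL-4 alone. Of the 24 members with an edge peak in the other 3 libraries, 5 (20.8%, 7.13 to 42.2) lacked one in KO IL-4, against 10.7% of all genes and 7.75% at equal list lengths. For WT IL-4 it was 3 of 22 (13.6%, 2.91 to 34.9), against 12.8% and 8.23%. Both intervals include the shares of all genes. None of 19 carriers (up to 17.6%) lacked one in KO untreated alone, against 3.03% of all genes and 4.32% at equal list lengths.

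Low score went with loss. In WT the 11 lost members had edge scores from 52.4 to 187 with a median of 80.9 in the untreated library, and the 24 kept ones from 103 to 592 with a median of 178. All 7 members with a WT untreated score under 100 were lost (59.0 to 100%), against 66.3% of all such genes. Of the 28 at 100 or more, 4 were lost (14.3%), against 13.8%. In KO the 8 lost members had a median of 102 and the 23 kept ones 171. Of the 8 members under 100 in KO untreated, 4 were lost (50%, 15.7 to 84.3), against 51.3% of all genes. Of the 23 members at 100 or more in KO untreated, 4 were lost with IL-4 (17.4%, 4.95 to 38.8), against 7.67% of all genes. A peak just under a list's lowest score of 50 is not in the list, so a lost gene is one without a called peak, not one shown to be closed.

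**Figure D5:**
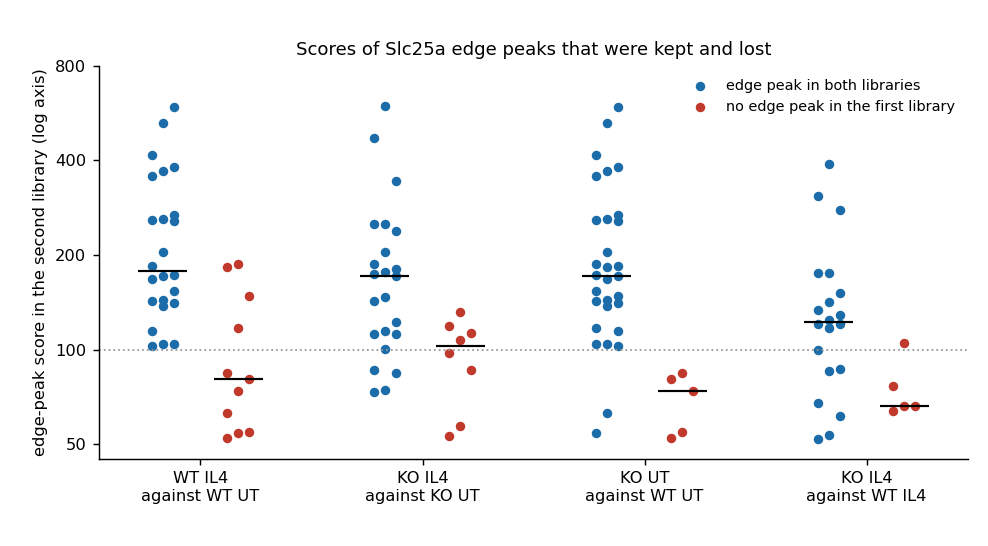
Edge-peak score in the second library of each comparison (log axis) for Slc25a genes with an edge peak in both libraries (blue) or without one in the first (red); black bars are medians and the dotted line marks a score of 100. In WT IL-4 against WT UT the kept genes have a median of 178 and the lost ones of 80.9.

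Over whole loci, each peak counted once, the carriers held 66 peaks untreated and 40 with IL-4 in WT, and 51 untreated and 38 with IL-4 in KO. With IL-4 the log2 ratio was -0.72 in WT and -0.42 in KO, against -0.75 and -0.38 over the loci of all genes. Relative to all genes the carriers stood at 0.04 (-0.57 to 0.62) in WT and -0.03 (-0.69 to 0.59) in KO. KO against WT they stood at -0.07 (-0.63 to 0.48) untreated and -0.14 (-0.82 to 0.54) with IL-4, so every interval included 0. A WT IL-4 peak overlapped 39 of the 66 locus peaks of WT untreated (59.1%, 46.3 to 71.0), against 54.9% of all locus peaks. For KO it was 34 of 51 (66.7%, 52.1 to 79.2) against 64.4%. A KO untreated peak overlapped 48 of the 66 (72.7%, 60.4 to 83.0), against 70.9%.

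Edge peaks made up 62.1% to 68.6% of the carriers' locus peaks in the 4 libraries, and 53.6% to 62.9% of those of all genes. They were wider than the other locus peaks, with a median of 503 bp against 360 bp in WT untreated and 629 bp against 454 bp in KO IL-4. Of the 11 members without an edge peak, 5 still had a locus peak: Slc25a2, Slc25a18, Slc25a22, Slc25a24 and Slc25a31. In Slc25a2 and Slc25a31 every such peak lay within 1 kb of an end of a neighbour, Taf7 and Intu. Of the 36 members with an edge peak, 8 (22.2%, 10.1 to 39.2) had it within 1 kb of another gene's end as well, against 31.3% of such genes overall.

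The list of 30 other mitochondrial transport genes held 5 of the carrier family under other symbols (Ucp1, Ucp2, Ucp3, Mtch1 and Mtch2). Its genes were lost with IL-4 in shares near those of all genes. An edge peak was found for 27 in WT and 25 in KO untreated cells, and for 20 in each IL-4 library. With IL-4, 8 of 27 were lost in WT (29.6%) and 6 of 25 in KO (24%), against the 28.8% and 22.7% of all genes given above. The genes gained were 1 of 3 in WT (33.3%, 0.84 to 90.6) against 1.89% of all genes, and 1 of 5 in KO, Abcb10 (20%, 0.505 to 71.6), against 3.22%. Mcu, the pore of the calcium uniporter, Micu2, its regulator, Timm22, the core of the translocase that inserts carriers into the inner membrane, and Ucp2, the uncoupling protein of macrophages, were lost in both genotypes. At equal list lengths Timm22 alone of these was lost in both, with scores of 141 in WT untreated and 111 in KO untreated. Vdac1, the outer membrane anion channel, was missing from KO IL-4 only (108 in WT untreated, 100.9 in WT IL-4 and 96.3 in KO untreated). Both subunits of the pyruvate carrier kept an edge peak in all 4 libraries, with scores of 104 to 254 at Mpc1 and 456 to 767 at Mpc2.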

How the data were processed

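ATAC-seq peak lists of 4 macrophage libraries were used, 1 per group. Peak scores were taken as the authors deposited them, with no unit stated. Per the submitters' processing notes, Bowtie2 2.2.5, MACS 1.4.2, HOMER and build mm10 were used, in unstated roles. The number of reads was unknown. Peak number and width move with depth.

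The 21887 nuclear protein-coding genes came from RefSeq (GRCm38.p6), and 13 mitochondrial ones were left out. The table gives spans without exons. An edge peak reaches within 1 kb of a span end, a locus adds 10 kb on each side, and 0.5 was added to counts before log2 ratios. Overlap means at least 1 bp. Equal list lengths keep the 9930 highest scores of each list. Starts came from RefSeq promoters.

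The members and lists were chosen with earlier results of these data known. Slc25a52, listed among cofactor carriers, was not matched. The members named include those that met a rule of change, score or role, with all values given: the same change in both genotypes or treatments, a call held at equal lengths, the 5 highest lowest-of-4 scores, or membership of a list of 14 carriers. Intervals of log2 ratios treat the share of the pair's locus peaks as binomial. One carrier and 1 other transport gene enter the counts and are otherwise not reported here. The counting code was tested on simulated data. Software was SciPy 1.17.1, pandas 2.3.3 and NumPy 2.4.6 under Python 3.11.15, with Matplotlib 3.10.9 for plots. Alternatives were equal list lengths, a minimum score of 100, wider edges, the start only, other locus widths and stricter overlap.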

Additional observations from a re-analysis of the deposited data

How the results depend on the processing

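Of 68 values under other settings, 58 stayed within 1.5 times the count or inside the interval and 10 moved beyond that. A change of sign was to be called only where the main interval excluded 0. Every main interval of a log2 ratio included 0, so none could be called. The ratio relative to all genes did change sign under some settings in each comparison. With a score of 100 or more it went from -0.14 to 0.20 in KO against WT after IL-4. At equal list lengths the members lost fell to 4 in WT with IL-4 and to 0 in KO against WT untreated, and the share of WT untreated locus peaks with a counterpart rose from 59.1% to 84.6% in WT IL-4 (all genes 54.9% to 75.9%) and from 72.7% to 92.3% in KO untreated (70.9% to 80.1%). With a score of 100 or more, the members gained were 0 of 19 in WT with IL-4 (all genes 0.559%), 1 of 24 in KO with IL-4 (4.17% against 1.32%) and 0 of 19 in KO against WT untreated (2.47%). At that score 1 of 14 was lost in KO against WT after IL-4 (7.14% against 20.7%), and the WT counterpart share was 39.5% (44%). Counts that stayed could still be of other members. At that score 14 of 28 were lost in WT with IL-4 (50% against 46%). Of the 11 lost with all peaks, they included only Slc25a4, Slc25a23, Slc25a35 and Slc25a37. In KO against WT untreated 5 of 28 were lost (17.9% against 22.9%), namely Slc25a15, Slc25a26, Slc25a38, Slc25a39 and Slc25a51. None of these 5 was lost there with all peaks. With the listed start only, 1 of 19 members was gained in KO against WT after IL-4 (5.26% against 7.89%), since Slc25a35 and Slc25a37 have no listed start. Equal lengths and a minimum score leave out peaks by construction; the cause of each change beyond that was not tested. Edges of 2.5 kb, loci of 50 kb or of the span alone, 50% reciprocal overlap and a strict lack of overlap moved no count or share beyond those limits. The strict lack of overlap could move few counts, since a called gene already has no peak within 1 kb of its ends in the other library. For single members, settings were chosen after seeing the data: of 47, 7 changed their set of libraries at equal lengths, 3 with edges of 2.5 kb and 19 with a score of 100 or more, and of 36 with a listed start 1 changed with the start only. No paired analysis was possible because each group holds 1 library, and for the same reason no replicate could be left out. Unknown depth limits every absence of a peak.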

Other observations

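Of the 4 carrier genes on chromosome X, Slc25a5, Slc25a14 and Slc25a53 had an edge peak in both untreated libraries, Slc25a53 alone had one in WT IL-4, and KO IL-4 had none. Slc25a43 had none in any library. Over the 966 protein-coding genes of that chromosome, an edge peak was found for 21.3% in WT and 19.3% in KO untreated cells, and for 12.5% in WT and 13% in KO cells given IL-4. At equal list lengths Slc25a53 was the only one of the 4 with an edge peak, in each library but KO IL-4, and the shares were 15.7% (WT) and 15.6% (KO) untreated and 12.5% and 12.4% with IL-4.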
